A study of Rattus norvegicus with 6 samples.

Results

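The 9 genes of the inflammasome and of the interleukin 1 system that were examined in rat lung were chosen by name: Nlrp3, Pycard, Casp1, Il1a, Il1b, Il18, Il1r1, Il1rn and Il1r2. All probe sets annotated to 1 of these 9 genes and to no other were taken. That gave 11 of the 31042 probe sets of the array and covered 8 of the 9 genes. No probe set carried the name Nlrp3 in the annotation used here, so the sensor itself was not analysed here. Gene expression was measured on 1-colour short-oligonucleotide arrays in whole lungs of inbred Lewis rats, each animal on its own array. The 3 silica rats inhaled aerosolized crystalline dust (Min-U-Sil 5) at 6.2 mg/m3, in sessions of 6 h on 5 days of each week, for 6 weeks. The 3 control rats were kept in filtered air under similar inhalation conditions. Age, sex and the interval between the last session and tissue collection are not stated in the labels used here. The study asked whether fibrogenic, redox-related and proinflammatory genes differ between silica-exposed and control lungs.

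The inflammasome is a cytosolic protein complex of phagocytes and other cells. A sensor such as NLRP3 recruits the adaptor ASC (the product of Pycard), which in turn recruits and activates caspase 1. Caspase 1 cleaves the precursors of interleukin 1 beta and interleukin 18, while interleukin 1 alpha is active without that step. Both interleukin 1 cytokines act through the receptor encoded by Il1r1, and are opposed by the receptor antagonist (Il1rn), which occupies that receptor, and by the decoy receptor (Il1r2), which binds ligand without signalling. Crystalline silica taken up by macrophages is a classic trigger of this complex. The arrays measured RNA, and neither cleavage nor release of a cytokine can be read from them.

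The 250 bases before the annotated start of Pycard, Il1b, Il1a and Il1rn are shown because these genes include the adaptor that rose and the ligand and antagonist genes compared here. They were taken from RefSeq (rat build GRCr8), 5′ to 3′ on the strand of the gene, and capitals mark matches to any of 6 motifs on either strand.
Pycard promoter, chr1:192033420-192033669, - strand: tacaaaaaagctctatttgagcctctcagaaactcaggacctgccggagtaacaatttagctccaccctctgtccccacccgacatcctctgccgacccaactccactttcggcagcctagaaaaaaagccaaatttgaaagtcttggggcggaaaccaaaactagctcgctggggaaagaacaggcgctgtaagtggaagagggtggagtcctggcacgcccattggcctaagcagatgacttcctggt
Il1b promoter, chr3:137036582-137036831, - strand: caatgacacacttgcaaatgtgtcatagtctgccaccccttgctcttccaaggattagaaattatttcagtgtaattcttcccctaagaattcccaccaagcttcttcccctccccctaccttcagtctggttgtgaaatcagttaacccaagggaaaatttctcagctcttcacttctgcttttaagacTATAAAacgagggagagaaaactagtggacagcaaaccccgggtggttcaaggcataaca
Il1a promoter, chr3:136990018-136990267, - strand: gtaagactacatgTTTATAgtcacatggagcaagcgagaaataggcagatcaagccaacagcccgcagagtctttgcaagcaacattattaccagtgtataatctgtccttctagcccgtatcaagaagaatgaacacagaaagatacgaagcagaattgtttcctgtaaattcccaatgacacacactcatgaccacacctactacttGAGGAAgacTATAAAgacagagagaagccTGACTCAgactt
Il1rn promoter, chr3:27520072-27520321, + strand: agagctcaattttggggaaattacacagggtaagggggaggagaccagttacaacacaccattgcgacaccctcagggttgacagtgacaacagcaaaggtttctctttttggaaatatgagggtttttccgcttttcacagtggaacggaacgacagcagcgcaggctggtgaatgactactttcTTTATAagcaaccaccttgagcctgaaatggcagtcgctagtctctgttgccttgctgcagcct

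The 6 motifs were searched in these windows for 8 of the 9 genes, Il1r2 having no entry among the windows used. They were the TATA box (TATAAA), the AP-1 element (TGANTCA), the PU.1 core (GAGGAA), the cyclic AMP response element (TGACGTCA), the NF-kB element and the core of the interferon-stimulated response element. TATAAA occurred on the gene's strand of Il1a (bases 32 to 27 before the start) and Il1b (bases 60 to 55), and on the other strand of Il1a and Il1rn, where it is printed as TTTATA. It was held by 12.9% of 33469 windows of the same length. The Il1a window also held TGACTCA at bases 12 to 6 (AP-1, 6.34% of all windows) and GAGGAA at bases 41 to 36 (PU.1 core, 23.3%). Of the windows not printed, GAGGAA occurred in Nlrp3 and Casp1, the interferon element core in Casp1 (3.41% of all windows) and the NF-kB element in Il1r1 (6.33%), while TGACGTCA (1.59%) occurred in none of the 8. The AP-1 element reads the same way on both strands, so its match in Il1a stands on each strand over the same bases. Matches to different motifs did not overlap, and a match is a description of letters, not a site shown to be used.

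Signals are linear intensities in arbitrary units, and each probe set has its own scale, so levels are compared between arrays and never between genes. Log2 fold changes are silica minus control on log2(signal + 16), given as the estimate ± SE with a 95% interval, from limma fitted to all 31042 probe sets. A probe set was called when its p, adjusted by the Benjamini-Hochberg method over all of them, was under 0.05. In whole tissue, fewer cells of a type and less RNA per cell cannot be told apart. The 6 alveolar type 2 genes that mark lung, among them Sftpc and Sftpb, summed to 91736 to 108295 in silica lungs and 98687 to 103789 in control lungs. Array medians lay between 7.38 and 7.42 on the log2 scale. The mean log2 ratio of 3-prime to 5-prime signal of beta-actin and GAPDH, a measure of RNA quality, lay between 1.15 and 1.675 in silica lungs and between 0.996 and 1.23 in control lungs.

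The adaptor gene and the decoy receptor gene rose in silica lungs. Over the 11 probe sets 2 were called, both higher, where 1.08% of all probe sets were called. The silica and control arrays did not overlap in 8 of the 11, with silica above control in 6 and below it in 2, where 25.6% of all probe sets separated in this way. At an unadjusted p under 0.05 there were 6 of the 11, against 17.3% of all. The genes had been chosen with earlier results of these data known, so these counts describe them and test nothing further.

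**Figure D1:**
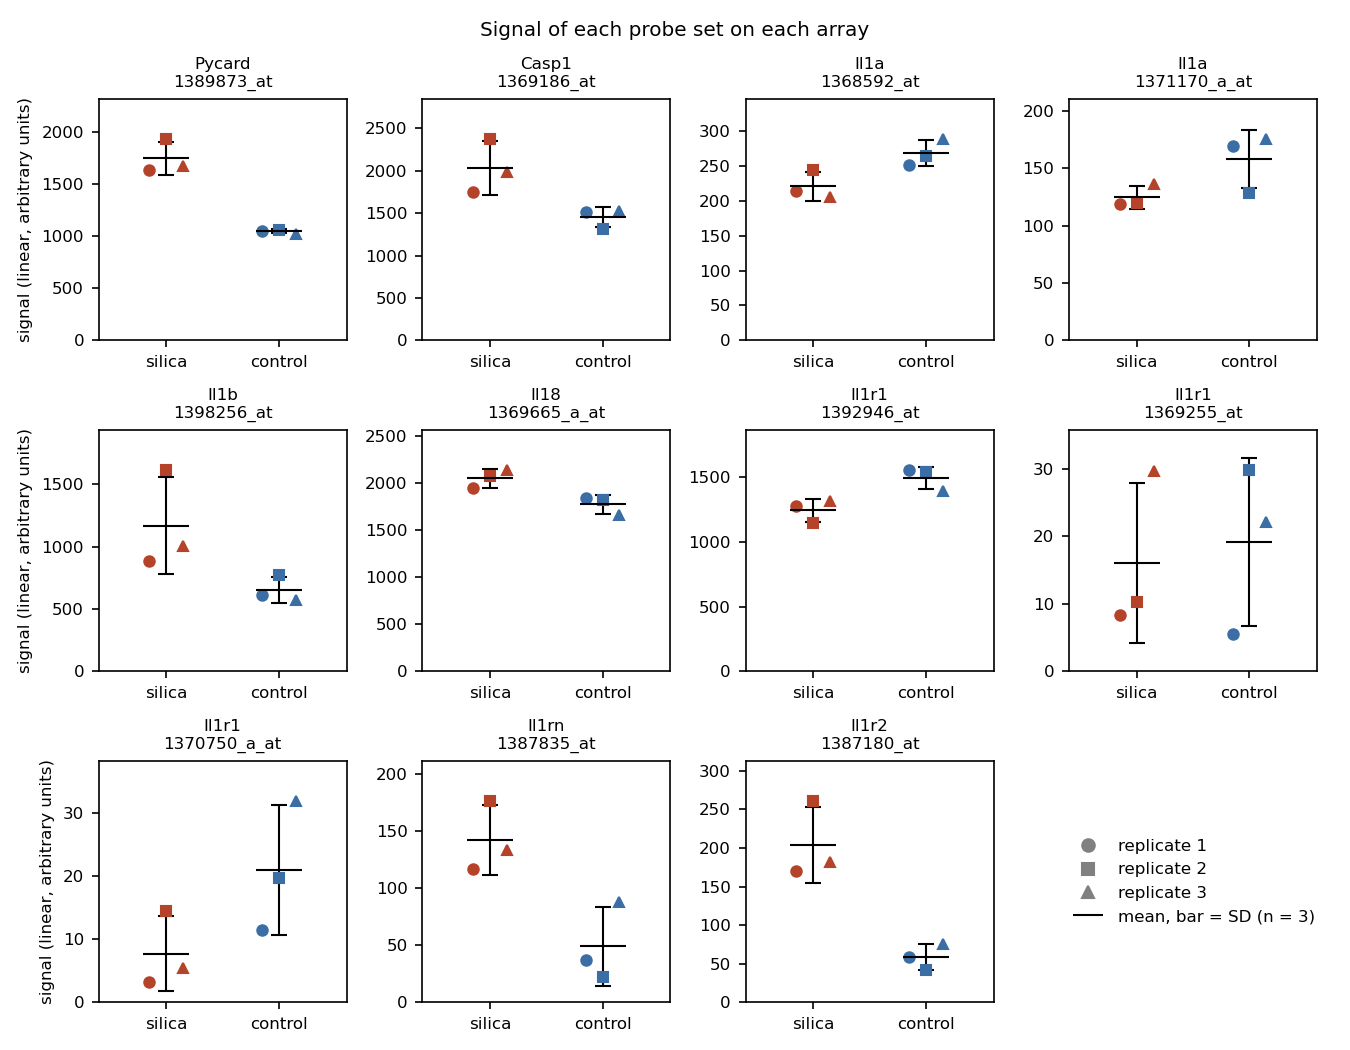
Signal (linear scale, arbitrary units) of each of the 11 probe sets on each array, silica left and control right, with symbols for the replicate number and bars for mean and SD (n = 3 animals per group). Pycard, Casp1, Il1b, Il18, Il1rn and Il1r2 have all silica points above all control points, whereas the brightest Il1a and Il1r1 probe sets have them below.

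Among sensor and adaptor genes, Pycard had signals of 1635, 1933 and 1676 in silica lungs and 1052, 1064 and 1026 in control lungs. Every silica lung exceeded every control lung, and the control lungs lay close together. The mean signal was 1748 ± 162 in silica lungs and 1047 ± 19.6 in control lungs (SD, n = 3 each), a ratio of 1.67. On the log2 scale Pycard rose by 0.73 ± 0.11 (95% interval 0.47 to 0.98, limma adjusted p = 0.0458). This call was lost when any 1 of the 6 arrays was left out, with log2 fold changes of 0.65 to 0.77, and with a covariate for RNA quality (0.71, adjusted p = 0.277).

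Casp1, the gene of the protease that the adaptor recruits, had signals of 1744, 2373 and 1982 in silica lungs and 1513, 1316 and 1526 in control lungs. The groups did not overlap, but the lowest silica lung lay nearer to the control lungs than to the highest silica lung. The log2 fold change of Casp1 was 0.47 ± 0.14 (95% interval 0.12 to 0.83) and did not pass (limma adjusted p = 0.188).

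The agonist cytokine genes, those whose products activate receptors, gave no common direction. Their 4 probe sets had a median log2 fold change of -0.03, beside -0.0010 over all probe sets, with 2 above and 2 below 0 and none called. By brightest probe set, 2 of the 3 genes were above 0. Il1b gave signals of 886, 1612 and 1006 in silica lungs and 614, 774 and 573 in control lungs. Silica replicate 2 stood far above the other silica lungs, and the lowest silica lung was above the highest control lung. Its log2 fold change was 0.79 ± 0.25 (95% interval 0.18 to 1.39, limma adjusted p = 0.196), and 0.53 without silica replicate 2.

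Il1a was measured by 2 probe sets, both with lower means in silica lungs. The brighter one had signals of 214, 245 and 205 in silica lungs and 251, 264 and 288 in control lungs. The groups were apart by a narrow gap, with the highest silica lung just under the lowest control lung. The log2 fold changes of Il1a were -0.26 ± 0.11 (95% interval -0.54 to 0.01, limma adjusted p = 0.304) and, for the dimmer probe set, -0.30 ± 0.14 (95% interval -0.64 to 0.05, limma adjusted p = 0.348). In the dimmer probe set the groups overlapped, at 119 to 137 in silica lungs and 129 to 176 in control lungs.

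Il18, whose product also requires caspase 1 to mature and drives interferon gamma production by lymphocytes, had signals of 1942, 2074 and 2136 in silica lungs and 1841, 1823 and 1658 in control lungs. The groups did not overlap, though the change was small, with a log2 fold change of 0.21 ± 0.10 (95% interval -0.03 to 0.45, limma adjusted p = 0.349).

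The signalling receptor gene Il1r1 had 3 probe sets, none called and all with point estimates under 0. The bright one had signals of 1272.5, 1143 and 1312 in silica lungs and 1551, 1533 and 1393 in control lungs, with every silica lung below every control lung. Its log2 fold change was -0.26 ± 0.11 (95% interval -0.52 to -0.0050, limma adjusted p = 0.282). The other Il1r1 probe sets averaged under 32 in both groups, at 16.1 ± 11.8 and 7.73 ± 5.97 in silica lungs and 19.1 ± 12.4 and 21.0 ± 10.3 in control lungs (SD, n = 3 each). Their groups overlapped, with log2 fold changes of -0.12 ± 0.36 and -0.63 ± 0.26. The first of these dim probe sets turned positive in 3 of 13 alternatives, and the second ranged from -1.44 to -0.24 with the pseudocount, so neither adds a measured direction.

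The antagonist and decoy genes had the highest point estimates of the 8 genes. Il1r2, whose product captures interleukin 1 without signalling, had signals of 170, 261 and 182 in silica lungs and 58.7, 41.7 and 75.2 in control lungs. The lowest silica lung was above the highest control lung by more than the whole range of the control lungs. Means were 204 ± 49.4 in silica lungs and 58.5 ± 16.8 in control lungs (SD, n = 3 each), a ratio of 3.49, and Il1r2 rose by 1.57 ± 0.23 on the log2 scale (95% interval 1.01 to 2.12, limma adjusted p = 0.0458). As for Pycard, the call on Il1r2 was lost when any 1 array was left out, with log2 fold changes of 1.39 to 1.72, and with the RNA quality covariate (1.67, adjusted p = 0.257). With pseudocounts of 64 and 1 the log2 fold change of Il1r2 was 1.12 and 1.80.

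Il1rn, the gene of the receptor antagonist, had signals of 117, 176 and 133 in silica lungs and 36.7, 22.6 and 88.1 in control lungs. The groups were apart, but control replicate 3 was far above the other control lungs. Mean signals were 142 ± 30.7 in silica lungs and 49.1 ± 34.5 in control lungs (SD, n = 3 each). The log2 fold change of Il1rn was 1.39 ± 0.37 (95% interval 0.48 to 2.29) and did not pass (limma adjusted p = 0.153). It was 1.79 without control replicate 3 and 0.90 with a pseudocount of 64.

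**Figure D2:**
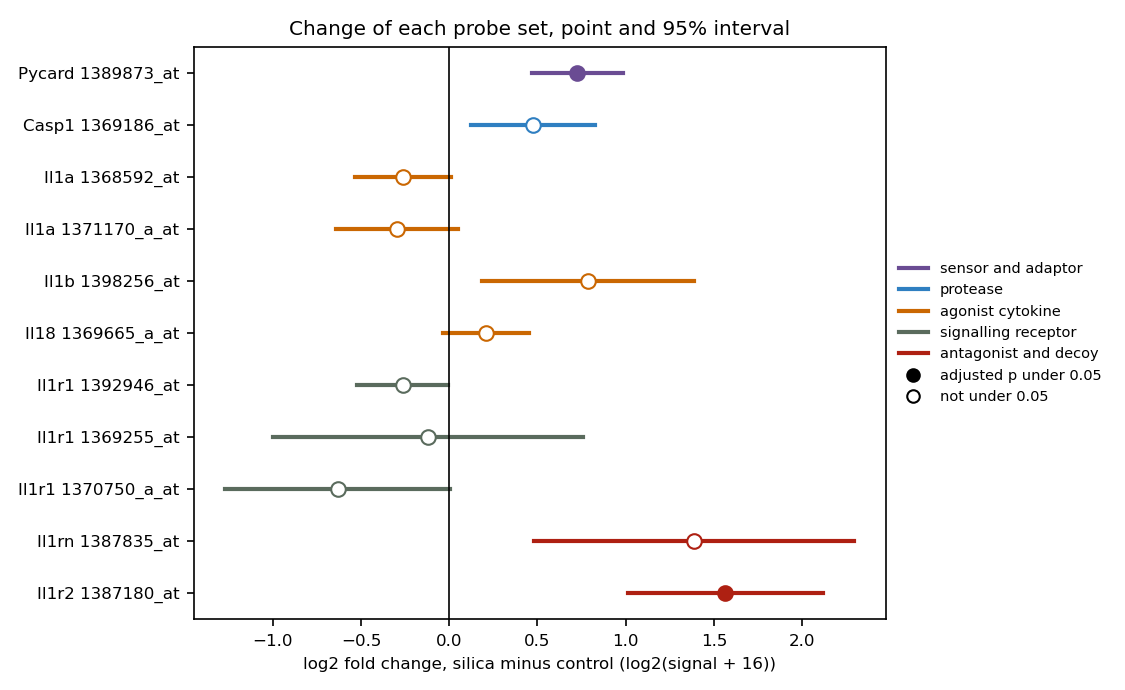
Log2 fold change (silica minus control, log2(signal + 16)) of each of the 11 probe sets with its 95% interval, coloured by role, with filled points for adjusted p under 0.05. Pycard (0.73) and Il1r2 (1.57) are filled, the cytokine probe sets lie on both sides of 0, and all 3 Il1r1 probe sets lie under 0.

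Arranged by role, the median log2 fold change was 1.48 over the 2 antagonist and decoy probe sets, -0.03 over the 4 agonist cytokine probe sets and -0.26 over the 3 signalling receptor probe sets. The sign of the cytokine median depends on whether Il1a counts once (0.21 over 3 genes) or with both of its probe sets. Whether 2 genes changed by different amounts was examined as the difference between their log2 signals on the same array, using the brightest probe set of each gene. Of 9 pairs planned, 7 could be computed, since 2 needed Nlrp3. An exact permutation test of 3 arrays against 3 cannot give a two-sided p under 0.1, so no pair could pass 0.05.

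The widest shift was between the decoy receptor gene and the signalling receptor gene. Il1r2 minus Il1r1 was -2.79, -2.07 and -2.75 in silica lungs and -4.39, -4.75 and -3.95 in control lungs, on the log2 scale. The shift was 1.83 and every silica lung was above every control lung (exact permutation p = 0.1, the smallest possible, adjusted over 7 pairs p = 0.14). Il1rn shifted by 1.65 relative to Il1a, Il1b by 1.05 relative to Il1a and by 0.58 relative to Il18, and Pycard by 0.25 relative to Casp1, each with the same p and adjusted p. In the pairs of Il1r2 with Il1r1, Il1rn with Il1a and Il1b with Il1a, 1 gene lay wholly above control and the other wholly below. Separation and p in these pairs were therefore fixed by the single-gene values and are no further result. The shift of Il1b relative to Il18 was 0.33 without silica replicate 2. That of Il1r2 relative to Il1r1 was 1.38 and 2.06 with pseudocounts of 64 and 1.

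The antagonist gene and Il1b gave no such separation. Il1rn minus Il1b averaged -2.87 ± 0.18 in silica lungs and -3.48 ± 0.93 in control lungs on the log2 scale (SD, n = 3 each), a shift of 0.60 with overlapping groups (exact permutation p = 0.4, adjusted p = 0.467). That shift was 0.17 without control replicate 2, 1.09 without control replicate 3 and 0.15 and 0.91 with pseudocounts of 64 and 1. Il1r2 minus Il1rn shifted by 0.18, also with overlapping groups (exact permutation p = 0.9, adjusted p = 0.9). The spread of both pairs among the control lungs, with SDs of 0.93 and 0.42, was wider than the shifts, so shifts of this size could not be told from 0.

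**Figure D3:**
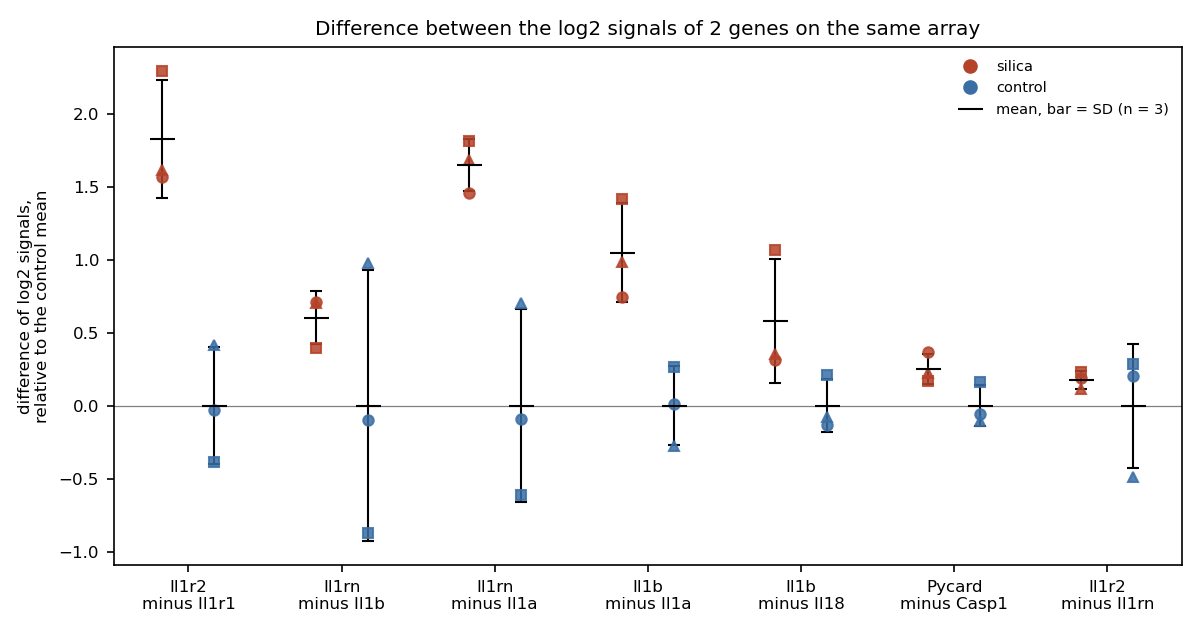
Difference between the log2 signals of 2 genes on the same array, relative to the mean of the control arrays, for 7 pairs, silica left and control right in each pair, with bars for mean and SD (n = 3 animals per group). Il1r2 minus Il1r1 (shift 1.83) and Il1rn minus Il1a (1.65) have all silica points above the control points, as the values of the single genes required. Il1rn minus Il1b and Il1r2 minus Il1rn overlap.

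Of the 6 probe sets with a point estimate above 0, silica replicate 2 had the highest silica signal in 5, all but Il18. The same lung had the highest summed signal of 6 neutrophil genes, among them S100a8 and S100a9, at 16093, where the other silica lungs had 9429 and 9392 and control lungs had 5369 to 6945. In this lung S100a9 (11972) and S100a8 (3280) made up most of the sum. Csf3r and Mmp8 were also highest there among the silica lungs. Cxcr2 was 55.8, beside 55.4 in silica replicate 1, and Camp was higher in silica replicate 1 (84.1) than in silica replicate 2 (75.0). Silica replicate 2 also had the highest silica sum for the macrophage, T and NK cell, alveolar type 2, alveolar type 1 and airway genes, 6 of the 9 marker lists in all. None of the 6 neutrophil genes passed the test and none averaged under 32 in both groups. S100a8 and S100a9 had every silica lung above every control lung, and the groups overlapped in the other 4. Camp was 11.9 in silica replicate 3 and 43.7, 4.0 and 9.5 in control lungs. Elane and Mpo had no named probe set. Of 9 macrophage and monocyte genes 2 rose, Cd68 (log2 fold change 0.88 ± 0.12, limma adjusted p = 0.0431) and Itgam (1.53 ± 0.16, limma adjusted p = 0.0307), which neutrophils also express. In Cd68, Adgre1, Cd14 and Itgam every silica lung was above every control lung, and in the other 5 of the 9 the groups overlapped. Of all 14217 named genes, by brightest probe set, 2659 had every silica lung above every control lung. The 9 macrophage and monocyte genes summed to 29461 to 37088 in silica lungs and 29982 to 31145 in control lungs. Lyz2 was the largest part, with means of 17624 in silica lungs and 20196 in control lungs. Of 8 T and NK cell genes 6 rose, with sums of 6880 to 8085 in silica lungs and 3452 to 3605 in control lungs. By brightest probe set 1.67% of all 14217 named genes were called. None of the 3 B cell, 6 alveolar type 2, 4 alveolar type 1, 4 airway, 4 endothelial and 4 cardiac muscle genes passed. All 4 alveolar type 1 genes nevertheless had every silica lung below every control lung, as did 1805 of all 14217 named genes. The alveolar type 1 sums were 44413 to 47857 in silica lungs and 53266 to 55851 in control lungs. B cell sums, mostly from Jchain, were 3429 to 5120 in silica lungs and 2402 to 3224 in control lungs. The alveolar type 2, airway, endothelial and cardiac muscle sums overlapped. The part of cell composition or of RNA quality in the changes of Pycard, Il1r2 and the other genes was not tested.

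Other genes of the pathway were taken from a list of 62, of which 41 were measured, and are described by the brightest probe set of each. The 21 without a named probe set included 10 of the 15 other sensor genes, among them Aim2, Nlrc4, Nlrp1a and Nlrp1b. Of the 41, 3 rose, none fell and 38 did not pass, where 1.55% of all named genes rose and 0.12% fell. At an unadjusted p under 0.05 there were 11 higher and 1 lower, against 12.6% and 7.27% of all named genes. The median log2 fold change was 0.12, beside 0.02 over all named genes. None of the 3 was called when any 1 array was left out.

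The rises were in a regulator, a sensor-family gene and a membrane rupture gene. Pstpip1, whose product binds the sensor pyrin, had signals of 738, 768 and 644 in silica lungs and 305, 325 and 284 in control lungs, and rose by 1.19 ± 0.11 (limma adjusted p = 0.0255). Nlrc5, an NLR family member known as the activator of class I antigen presentation genes, had 462, 541 and 429 in silica lungs and 190.5, 155 and 111 in control lungs, and rose by 1.57 ± 0.20 (limma adjusted p = 0.0403). Ninj1, which ruptures the plasma membrane in late pyroptosis, had 1430.3, 1501 and 1355 in silica lungs and 786, 854 and 860.0 in control lungs, and rose by 0.77 ± 0.10 (limma adjusted p = 0.0405). In each of these genes all silica lungs lay above all control lungs.

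None of the genes named here that act around the complex or below the receptor passed the test. The pore-forming gene Gsdmd had a log2 fold change of 0.26 ± 0.13 (limma adjusted p = 0.365) and the lysosomal protease gene Ctsb of 0.28 ± 0.11 (limma adjusted p = 0.272). Txnip, whose product can bind NLRP3, had -0.22 ± 0.10 (limma adjusted p = 0.323) and the ATP-gated channel gene P2rx7 -0.12 ± 0.20 (limma adjusted p = 0.796). The shared adaptor gene of interleukin 1 and Toll-like receptors, Myd88, had 0.41 ± 0.12 (limma adjusted p = 0.185) and the co-receptor gene Il1rap -0.06 ± 0.09 (limma adjusted p = 0.771). A dimmer Il1rap probe set had 0.25 ± 0.24 (limma adjusted p = 0.648). Silica lungs lay wholly above control lungs in Ctsb and Myd88 and wholly below them in Txnip. The groups overlapped in Gsdmd, P2rx7 and Il1rap.

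The list also held the gene of interleukin 33, its receptor gene and the gene of an interleukin 18 inhibitor. The interleukin 18 receptor genes on the list, Il18r1 and Il18rap, had no named probe set. Il33, an alarmin stored in the nuclei of barrier cells, had signals of 6185, 5961 and 5920 in silica lungs and 7902, 7753 and 8104 in control lungs. All silica lungs lay below all control lungs in both of its probe sets, with log2 fold changes of -0.39 ± 0.09 (limma adjusted p = 0.113) and -0.50 ± 0.13 (limma adjusted p = 0.147). Its receptor gene Il1rl1 had -0.17 ± 0.47 (limma adjusted p = 0.887) and 0.23 in a dimmer probe set, with overlapping groups in both. Il18bp, the secreted inhibitor of interleukin 18, had 603, 1331 and 523 in silica lungs and 298, 260 and 273 in control lungs. The groups were apart, silica replicate 2 was far above the other silica lungs, and the log2 fold change of 1.39 ± 0.34 did not pass (limma adjusted p = 0.136).

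**Figure D4:**
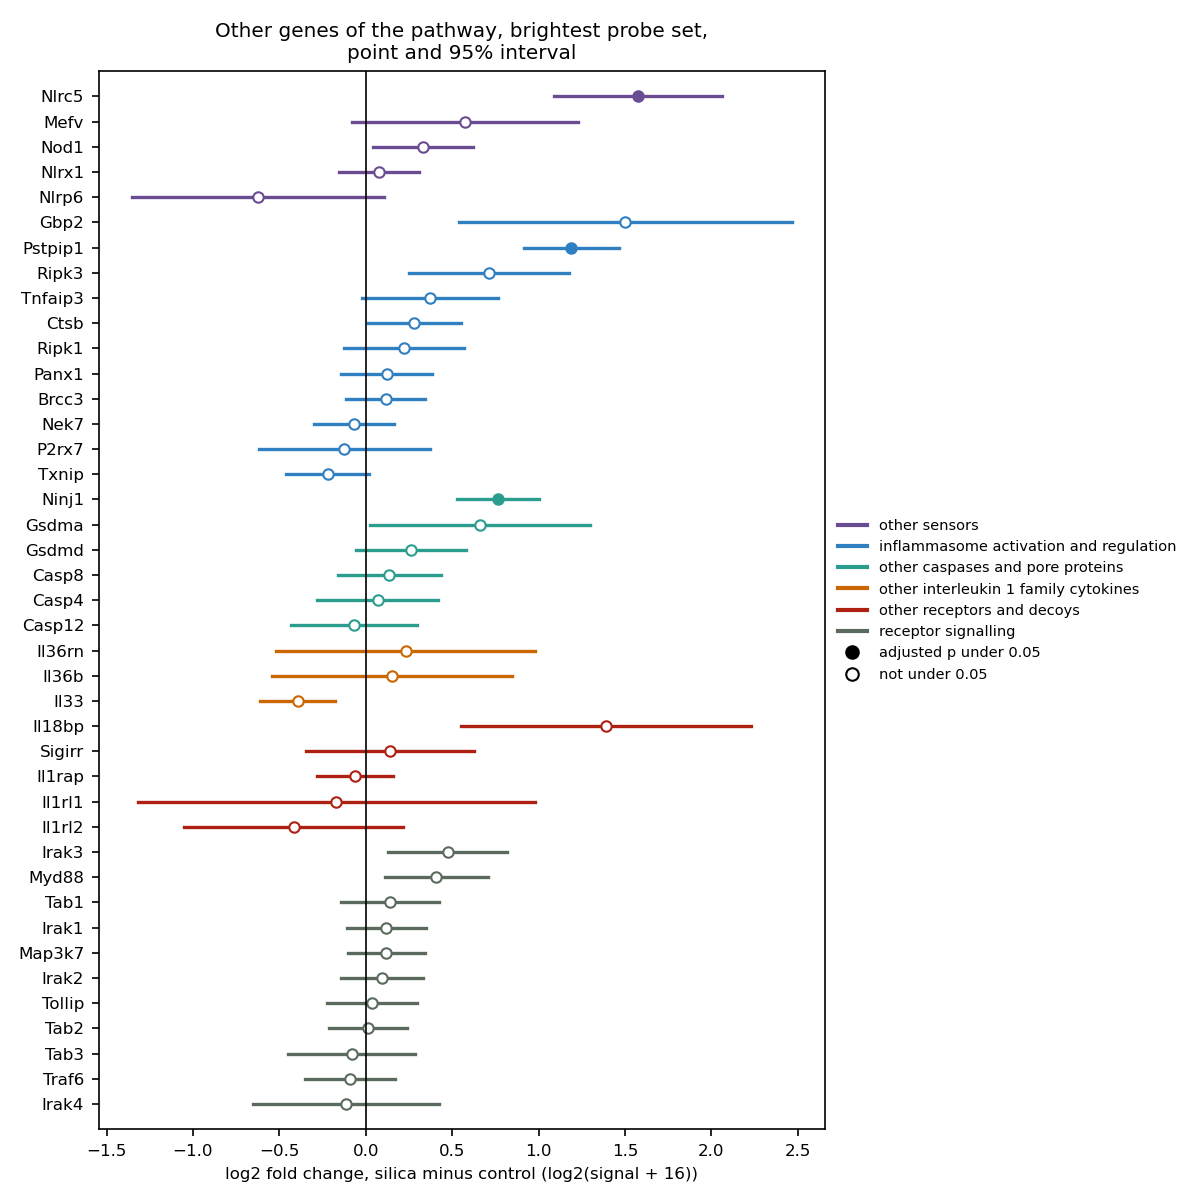
Log2 fold change (silica minus control, log2(signal + 16)) with its 95% interval for the brightest probe set of each of the 41 other pathway genes, grouped and coloured by role, with filled points for adjusted p under 0.05. Nlrc5 (1.57), Pstpip1 (1.19) and Ninj1 (0.77) are filled, and Il33 (-0.39) lies under 0 with an interval that leaves out 0.

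The genes whose profiles lay nearest to those of the 2 called genes were found from log2 values centred on the control mean, among 12405 genes. Nearest to Pycard were Gngt2, Rnaset2 and Vav1, with root-mean-square differences of 0.0483, 0.0501 and 0.0527 over 6 arrays. Nearest to Il1r2 were Sapcd2, Mcpt10 and Mki67, with 0.13, 0.141 and 0.155. The log2 fold changes of Gngt2, Rnaset2 and Vav1 were 0.75, 0.71 and 0.73. Those of Sapcd2, Mcpt10 and Mki67 were 1.64, 1.46 and 1.65. Their closeness to the values of Pycard and Il1r2 was fixed by the way these genes were chosen and is no further result. Gngt2 (limma adjusted p = 0.0649) and Vav1 (limma adjusted p = 0.0606) did not pass, whereas Rnaset2, Sapcd2, Mcpt10 and Mki67 did. The mean signal of Sapcd2 was under 32 in control lungs.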

How the data were processed

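Expression was measured in lung RNA of 3 silica-exposed and 3 control Lewis rats, 1 array each. Per the labels' protocols, RNA was extracted with a phenol-based reagent and biotin-labelled cRNA was transcribed in vitro. The deposited intensity values are linear, and the sources used here do not state the summarising software. Their means after trimming 2% at each end were 500.14 to 500.15 on every array, so 1 factor per array had been applied. Such scaling leaves differences in the shape of the distributions.

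After 57 control probe sets were left out, 31042 were analysed as log2(signal + 16) with limma 3.58.1 in R 4.3.3 (a group term alone, with 4 residual degrees of freedom and 2.18 prior ones). The number of arrays limits the precision. Names came from the platform annotation, updated by gene identifier (20758 of 20826 probe sets with 1 gene matched), 436 had several genes and 9780 were not listed. A threshold of adjusted p 0.05 was used. Gene pairs were compared by exact permutation (scipy 1.17.1). Alternatives were quantile normalization, median centring, leaving out the dimmer 50%, an intensity trend with robust spread, a replicate block, pseudocounts of 1 and 64, an RNA quality covariate, each array left out and a threshold of 0.01. All members were named whatever their values. Of the other pathway genes, those past the threshold and a fixed set of them were named, with up to 3 genes nearest in profile to each of Pycard and Il1r2. Members, lists and rules were chosen with earlier results of these data known.

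On simulated arrays with 31042 probe sets and the real means and spread, limma recovered 0%, 50%, 66% and 98% of 50 probe sets each at log2 changes of 0.5, 1, 2 and 4, and called 4 unchanged ones. Far fewer probe sets were changed there than the 5369 at an unadjusted p under 0.05 in the real data. The adjusted p depends on that number, so these shares do not give the recovery in the real fit.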

Additional observations from a re-analysis of the deposited data

How the results depend on the processing

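The fold changes kept their direction in all alternatives run for 10 of the 11 probe sets, while the calls did not hold. Both member calls stayed with quantile normalization and a pseudocount of 64. With median centring 1 was called (Il1r2, with Pycard at adjusted p = 0.0500) and with the dimmer 50% left out 1 of the 6 that remained (Pycard, Il1r2 not being among them). An intensity trend with robust spread called 5 of 11, adding Casp1, Il1b and Il1rn. There were 0 with a pseudocount of 1, the RNA quality covariate, a threshold of 0.01 or any 1 array left out (limma, 5 to 7 of 11 at an unadjusted p under 0.05 without 1 array, 6 with a pseudocount of 1 and 4 with the covariate). Under the same settings, 9 probe sets of the pathway list were called with the dimmer 50% left out and 8 with the trend, each including both Il33 probe sets as lower, and 0 with a pseudocount of 1, the covariate, a threshold of 0.01 or 1 array left out (7 to 17 of 57 at an unadjusted p under 0.05). Over all probe sets the calls numbered 1675 with the dimmer 50% left out, 1862 with the trend, 919 and 43 with pseudocounts of 64 and 1, 6 at a threshold of 0.01, 0 with the covariate (limma, 3184 at an unadjusted p under 0.05), and 0 to 12 with 1 array left out.

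With the replicate number as a block, 0 member and 0 pathway probe sets passed and 1 of all did (limma, 6 of 11, 18 of 57 and 5190 at an unadjusted p under 0.05). Deviations of same-numbered arrays correlated at 0.035 to 0.0924, under the limit of 0.1 for treating the numbers as pairs, although all 6 arrays correlated best with their own number.

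The dim Il1r1 probe set at -0.12 reached 0.41 with the covariate and ranged from -0.44 to 0.11 with 1 array left out. The shift of Il1r2 minus Il1rn ranged from -0.068 to 0.32 with 1 array left out and turned negative without control replicate 3, and the other 6 pairs kept their sign, although Il1rn minus Il1b ranged from 0.17 to 1.09 and Il1b minus Il18 from 0.33 to 0.71 with 1 array left out. The causes were not tested. The pairs that involve Nlrp3 were not run.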

Other observations

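By brightest probe set, silica and control lungs separated in 18 of the 41 pathway genes (16 higher and 2 lower). They separated in 4464 of all 14217 named genes (2659 higher and 1805 lower). Some of those 18 that did not pass the test are given here, named after their values were seen, and others are not. Gbp2, a guanylate-binding protein gene induced by interferon, had signals of 3521, 9748 and 3757 in silica lungs and 1987, 1663 and 1689 in control lungs (log2 fold change 1.50 ± 0.40, limma adjusted p = 0.149). As with Il18bp, silica replicate 2 stood far above the other silica lungs. Ripk3, a kinase gene of necroptosis, had 294, 493 and 360 in silica lungs and 215.5, 234 and 216 in control lungs (log2 fold change 0.71 ± 0.19, limma adjusted p = 0.151). Irak3, which restrains interleukin 1 and Toll-like receptor signalling, had 296, 389 and 365.5 in silica lungs and 243, 274 and 223.5 in control lungs (log2 fold change 0.47 ± 0.14, limma adjusted p = 0.182).

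Probe sets of the same gene gave different values. Traf6, a ubiquitin ligase gene of the receptor pathway, had log2 fold changes of -0.09 ± 0.11 in its brightest probe set and -0.14, -0.43 and -0.50 in 3 dimmer ones, none past the threshold. Tollip, an adaptor gene that dampens the pathway, had 0.04 ± 0.11 in its brightest probe set and -0.50 and 0.0023 in 2 dimmer ones, none past the threshold.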
